A study of Mus musculus with 136 samples.

Results

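The effect of maternal diabetes on gene expression in the mouse embryo was compared between 2 stages of somite formation, as the interaction of stage with maternal condition. All 66 libraries with 1 embryo each were used, out of 136 libraries in the series, of which the others hold yolk sacs or repeat libraries. Every embryo belongs to the NOD strain, in which females can become diabetic spontaneously, and was taken at 8.5 days of gestation. Embryos of normoglycemic NOD dams (normal embryos) and of diabetic NOD dams (diabetic embryos) were each divided by the labelled somite number into an earlier stage of 5 or 6 somite pairs and a later stage of 7 to 9. The earlier stage holds 17 normal embryos from 10 litters and 17 diabetic embryos from 9 litters. The later stage holds 16 normal embryos from 7 litters and 16 diabetic embryos from 6 litters, and a single litter, D24M15, gave 7 of these 16. Blood glucose of the dams was 105 to 164 mg/dl in the normal and 423 to 595 mg/dl in the diabetic groups, without a number for 1 embryo. Mean somite number was 5.35 and 5.24 in normal and diabetic embryos of the earlier groups, against 7.88 and 7.94 in the later ones. Because each library is a whole embryo, fewer cells of a type and less RNA per cell cannot be told apart.

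Somites are blocks of paraxial mesoderm that are added in pairs from the tail end of the embryo. During the same hours the neural folds close, the heart tube begins to beat, and blood cells enter from the yolk sac. Wnt and FGF signals keep the tailbud growing, whereas retinoic acid acts from the formed somites. Embryos of diabetic dams are known for neural tube and heart defects, which arise in this window.

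The libraries count UMI-tagged transcript 3′ ends, with 1330731 to 5658850 counts per embryo. All 7 markers of neural tube, somite and heart (Sox1, Sox2, Meox1, Tcf15, Nkx2-5, Myl7 and Tnnt2) had counts in every embryo. Of 8 decidua and trophoblast markers, Plac1 had counts in 66 embryos (mean 17.7 normalized counts), Prl8a2 in 33, Gcm1 in 21, Tpbpa in 14 and Prl3c1 in 1, and Prl3d1, Prl6a1 and Prl2c2 had none in any. On the first 2 principal components of log expression, which hold 19.7% and 12% of the variance, 3 diabetic libraries stand apart with scores past 50. They are D28M36C and D28M23B of the later stage and D28M23H of the earlier stage. The share of counts in gene models of the annotation classes TEC and sense intronic moved in the same way as the interaction. Its medians were 0.25% and 0.323% in normal embryos at the earlier and later stages, against 0.312% and 0.226% in diabetic embryos, and single libraries had 0.114% to 0.598%. Over the 66 libraries it followed the second component with a Spearman rho of 0.76, as a description. Fits with this share as a covariate are given with the genes below, where it is named the share of intronic gene models. That name is short for both classes, and whether the TEC models lie in introns was not examined. What sets the share was not tested.

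Of 11304 genes tested, 984 (8.7%) had a diabetes effect that differed between the stages (adjusted p under 0.05 by edgeR's quasi-likelihood test). For 492 genes (4.35%) the difference between diabetic and normal embryos was higher at the later stage than at the earlier, and for another 492 (4.35%) it was lower. These are called higher and lower genes here, and an interaction is this difference of differences on the log2 scale, given with its SE. Estimates of the diabetes effect had opposite signs at the stages for 479 higher and 488 lower genes, against 6343 of all 11304 genes tested. Choosing genes by the difference between these estimates itself favours opposite signs, so that the signs are a description and support nothing. The median higher gene had a log2 fold change of diabetic against normal embryos of -0.22 at 5–6 and of 0.28 at 7–9 somite pairs. The median lower gene went from 0.31 to -0.33, and the median interaction over all genes tested was 0.01.

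**Figure D1:**
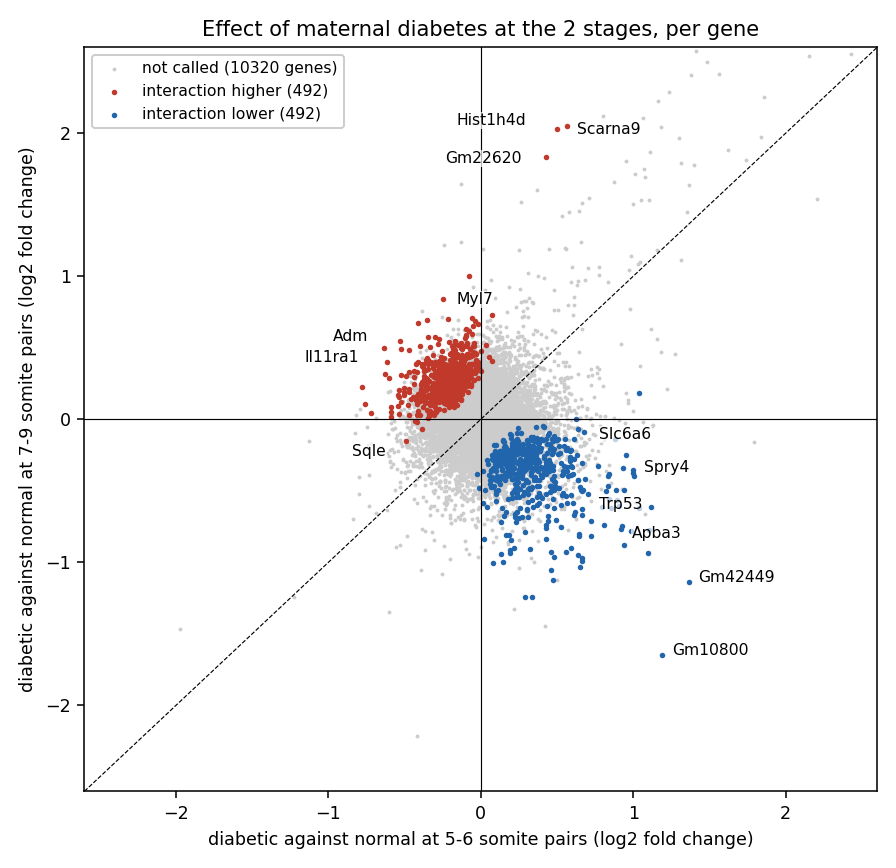
Log2 fold change of diabetic against normal embryos for the genes tested, at 5–6 somite pairs on the x axis and at 7–9 somite pairs on the y axis. Red points are the 492 higher genes and blue points the 492 lower genes, which fall mostly to the upper left and the lower right. Grey points are genes without a call, of which 18 lie outside the axes, and the dashed line marks equal effects.

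Within single stages, 258 genes (2.28%) were raised and 267 (2.36%) lowered in diabetic embryos with 5–6 somite pairs, and 591 (5.23%) were raised and 356 (3.15%) lowered with 7–9. Both stages called 65 genes, which is 12.4% of the earlier and 6.86% of the later calls. Of these, 56 went the same way, and none of the 56 had a called interaction. The other 9 went in opposite directions, and all had one. Those named next were chosen after their values were seen. Nans (sialic acid synthesis), Akr1a1 (an aldehyde reductase) and Jmjd6 were first lowered and later raised. Ccnd1 (cyclin D1), Itgb8 (an integrin subunit), Golga5 and the gene models Gm26901 and Gm43274 were raised and then lowered. Ccnd1 had log2 fold changes of 0.34 (adjusted p = 0.0392, edgeR) and -0.35 (adjusted p = 0.0285, edgeR) at the stages. Interaction genes called at neither stage alone numbered 189 of the higher and 236 of the lower genes.

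The same contrast can be read as a stage change. Between the stages 1545 genes (13.7%) were called in normal and 3551 genes (31.4%) in diabetic embryos. Higher genes had a median stage change of 0.34 in diabetic and of -0.17 in normal embryos, and lower genes of -0.45 and 0.21. Of the 492 higher genes, 324 had a called stage change in diabetic and 133 in normal embryos. Of the 492 lower genes, 371 and 79 had one. A called change in both conditions in opposite directions was found for 12 higher and 14 lower genes.

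Littermates share a dam, and the test treats them as independent. With litter as fixed terms, which compares stages within litters, 740 genes were higher and 1099 lower, and 603 of the 984 were called there as well. The stage changes of that fit come from litters that hold both stages, 3 diabetic and 7 normal, with embryos still as the units. Of the diabetic ones, D28M23 and D28M36 hold all 3 libraries that stand apart. With counts summed per litter and stage, 0 genes were higher and 1 was lower (Gm10800) by edgeR. In that fit 1922 genes had an unadjusted p under 0.05, and all 984 genes kept the sign of their interaction. It holds the same embryos by which the 984 were chosen, so that the kept signs support nothing. Without the 3 libraries that stand apart, 116 genes were higher and 197 lower, and 308 of the 984 remained called. Leaving out 1 litter at a time gave 155 to 732 higher and 194 to 776 lower genes, the fewest without D28M23. Of 91 genes with a called interaction that the naming rule picked, 28 were called in all 22 of these fits, and 53, 54, 50 and 17 lost their call without D28M23, D28M53, N28M06 and D24M15, respectively. With litter as fixed terms 38 of the 91 lost their call, and with the share of intronic gene models as a covariate 42 did. Both of these fits still called 38 of the 91, and the losses are named with the genes.

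By size, the 12 leading higher genes were Hist1h4d (a replication-dependent histone H4), Scarna9 (a small Cajal body RNA), the small nucleolar RNA model Gm22620, Adm, Sfn, Trib3, Hist1h3a, Lum, Rpl28-ps1, Il11ra1, ENSMUSG00000029333 and Mettl15, with interactions from 1.53 to 1. Il11ra1 encodes a receptor subunit for interleukin 11. It had 11.3 to 58.3 (median 33.6) normalized counts (counts divided by DESeq2 size factors) in the earlier normal group, 8.55 to 55.5 (median 45.9) in the later normal, 9.45 to 38.4 (median 22.3) in the earlier diabetic and 33.6 to 109.9 (median 49.8) in the later diabetic group. All groups of a stage overlapped, and the diabetic median was the lower one among earlier and the higher one among later embryos. Its interaction was 1.02 ± 0.25 (adjusted p = 0.01). Adm encodes adrenomedullin, a vascular peptide hormone. Its medians were 14.6 and 19.2 normalized counts in normal and 11 and 29.4 in diabetic embryos, and its interaction was 1.13 ± 0.37 (adjusted p = 0.0452). Trib3, a pseudokinase gene of the integrated stress response, had 1.09 ± 0.33. Sfn (14-3-3 sigma, an epithelial gene) had 1.09 ± 0.35 and Lum (the matrix proteoglycan lumican) 1.08 ± 0.33. Rpl28-ps1, a ribosomal protein pseudogene, can share reads with its parent gene. Of these 12 genes, Il11ra1 and ENSMUSG00000029333 were called without each litter in turn, but the latter was not called with litter as fixed terms (0.81, adjusted p = 0.102). In that fit Il11ra1 was the single one of the 12 still called. Hist1h4d then had 0.56, Scarna9 0.87, Gm22620 0.43, Hist1h3a 0.6 and Mettl15 0.62, and the other 6 had 0.81 to 1.2. The share of intronic models as a covariate ended the calls of Hist1h4d, Gm22620, Hist1h3a, Lum, Rpl28-ps1 and Mettl15.

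The 12 leading lower genes began with Gm10800 (ENSMUSG00000075014; chromosome 2, 98666547 to 98667301 on GRCm38), a predicted gene. It had 1.29 to 35 (median 13.8) normalized counts in the earlier and 2.15 to 118 (median 19.8) in the later normal group. In diabetic embryos it had 3.72 to 76.3 (median 28.6) and 0.759 to 38 (median 7.45). Normal medians went up and diabetic medians down between the stages, with wide overlap. Its interaction was -2.84 ± 0.57 (adjusted p = 0.0051). A further 10 were gene models of the TEC class (Gm42449, Gm44144, 2610011E03Rik, Gm43274, 5430420F09Rik, Gm37663, Gm37524, Gm37018, Gm37879 and Gm43275), with interactions from -2.5 to -1.65. With litter as fixed terms 9 of the 10 lost their call, all but Gm42449, with values of those 9 from -1.33 to -0.36. With the share of these gene models as a covariate 9 lost it, all but Gm43274, with values from -0.88 to -0.06. This covariate is built from the counts of the same class of models, so that smaller values were built in and that fit cannot decide about them. The remaining one was Apba3, an adaptor protein gene, with -1.68 ± 0.56. Its call was lost without any 1 of 13 litters, with sex added and without the libraries that stand apart. It was kept with litter as fixed terms (-2.72) and with the share of intronic models added (-2.09). As a class, 221 TEC and sense intronic models were tested, and 54 of them were lower and 0 higher. Their median went from 0.34 to -0.42 between the stages. Of 10644 protein-coding genes, 477 were higher and 422 lower. TEC models can overlap other genes, whose reads could then be counted in them.

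In the Wnt pathway list 4 of 37 genes tested were lower (10.8%) and 0 higher, and 28 estimates were negative. Here and below, the share of a list stands beside 4.35% of all genes tested in each direction. The list median moved from 0.16 at 5–6 to -0.16 at 7–9 somite pairs. Wnt5a is a ligand made in the tailbud (ENSMUSG00000021994; chromosome 14, 28504750 to 28527448). It had 124 to 241 (median 173) normalized counts in the earlier and 137 to 257 (median 191) in the later normal group. The earlier diabetic group had 118 to 361 (median 206) and the later diabetic group 81.3 to 216 (median 150.4). The order of the medians was turned around between the stages, with overlap throughout. The interaction was -0.65 ± 0.16 (95% confidence interval -0.97 to -0.34, adjusted p = 0.0101). Lef1, a transcription factor that acts with beta-catenin (ENSMUSG00000027985; chromosome 3, 131110471 to 131224356), had 75.6 to 208 (median 137) and 118 to 231 (median 182) in normal and 101 to 298 (median 147) and 73.2 to 195 (median 132) in diabetic embryos. Normal embryos rose by 0.42 between the stages on the log2 scale (adjusted p = 0.0302, edgeR), and the interaction was -0.76 ± 0.19 (adjusted p = 0.0132). The co-receptor gene Lrp6 had -0.53 ± 0.16, and Shisa2, which restrains Wnt and FGF receptors, had -0.96 ± 0.32. Wnt5a and Lef1 were called without each litter in turn, whereas Lrp6 lost its call without any 1 of 7 litters and Shisa2 without any 1 of 14. Without the libraries that stand apart 2 of the list were lower, and with litter as fixed terms 10. Over all genes these fits called 197 and 1099 lower, and the fit with the share of intronic models 767. The share of intronic models as a covariate ended the calls of Wnt5a (-0.44, adjusted p = 0.0508) and Lrp6 (-0.39, adjusted p = 0.1), and 5 of the list were then lower.

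In the tailbud list 2 of 21 genes were lower (9.52%), Wnt5a and Cyp26a1, and 19 estimates were negative. The list median moved from 0.25 to -0.13. Cyp26a1 degrades retinoic acid in the tailbud (ENSMUSG00000024987; chromosome 19, 37697798 to 37701536). Its values were 51.4 to 121 (median 105) normalized counts in the earlier normal, 63.6 to 146 (median 102) in the later normal, 71.4 to 155 (median 125) in the earlier diabetic and 31.9 to 115 (median 81.6) in the later diabetic group. Normal medians were close at the stages, with a stage change of 0 (adjusted p = 0.998, edgeR), while diabetic embryos changed by -0.68 (adjusted p = 1.4e-04, edgeR). Its interaction was -0.68 ± 0.19 (adjusted p = 0.0227), called without each litter in turn. Spry4, a feedback inhibitor of FGF signalling, was the single call among 18 clock and presomitic genes and among 21 FGF pathway genes. Its medians were 11.7 and 18 in normal and 21.7 and 11.8 in diabetic embryos. The interaction was -1.4 ± 0.35 (adjusted p = 0.0119), and the call was lost without litter D28M53. It was also lost with the share of intronic models added (-0.7, adjusted p = 0.131). Smo, the signal-transducing receptor of the hedgehog pathway, was the single call among 15 genes of that list (-0.66 ± 0.18), and it was not called with this share added (-0.31, adjusted p = 0.152) or with litter as fixed terms (-0.47, adjusted p = 0.121).

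Hox genes, which mark position along the body axis, had 1 lower gene of 25 tested (4%), near the 4.35% of all genes, so that the call is one of a gene and not of the list. Hoxb3 (ENSMUSG00000048763; chromosome 11, 96323326 to 96347930) had 39.5 to 188 (median 96.6) normalized counts in the earlier and 91.9 to 205 (median 128) in the later normal group, against 62.6 to 323 (median 138) and 34.9 to 179.6 (median 91.2) in diabetic embryos. The ranges overlapped at both stages. The interaction was -0.99 ± 0.23 (adjusted p = 0.00841), called without each litter in turn. In the neural tube closure list 2 of 36 genes were lower (5.56%, near the 4.35% of all genes), Lrp6 and Twist1, and 0 higher. With litter as fixed terms 7 of the list were lower and 0 higher, in a fit that called 1099 of all genes lower. Twist1 is a mesenchymal transcription factor that cranial neural tube closure requires. Its medians were 31.1 and 51.1 normalized counts in normal and 52.2 and 42.3 in diabetic embryos, with an interaction of -0.86 ± 0.28 (adjusted p = 0.0434). The neural crest list had Twist1 as lower and Crabp1 as higher among 19 genes. Crabp1 binds retinoic acid in the cytoplasm. It and the retinoid receptor gene Rxra (0.52 ± 0.17) were the 2 higher genes of the retinoic acid list of 16, in which Cyp26a1 was the lower one. Crabp1 had 479 to 1381 (median 911) in the earlier and 1053 to 2609 (median 1362) in the later diabetic group, while normal embryos had 616 to 1474 (median 893) and 829.8 to 1419 (median 1037). Its interaction was 0.59 ± 0.18 (adjusted p = 0.0352). Twist1 (-0.81, adjusted p = 0.0599) and Crabp1 (0.52, adjusted p = 0.0538) were not called with the share of intronic models added. Pax3, whose loss gives open neural tubes, had no call (-0.35 ± 0.17, adjusted p = 0.162). Without the libraries that stand apart no gene of the neural tube closure, neural crest, retinoic acid or hedgehog lists was called by edgeR.

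Trp53 was the single call among 21 genes of the p53 list (4.76% lower). It encodes p53, which arrests or removes damaged cells (ENSMUSG00000059552; chromosome 11, 69580359 to 69591873). Normal embryos had 29.2 to 136 (median 46) normalized counts when earlier and 35.9 to 134 (median 85.6) when later. Diabetic embryos had 51.7 to 186 (median 85.7) and 31.9 to 109 (median 52.4). The higher median thus passed from diabetic to normal embryos, with wide overlap. Its log2 fold change of diabetic against normal embryos was 0.67 ± 0.19 at 5–6 (adjusted p = 0.0263) and -0.49 ± 0.19 at 7–9 somite pairs (adjusted p = 0.0937). The interaction was -1.16 ± 0.27 (95% confidence interval -1.7 to -0.63, adjusted p = 0.00841), called without each litter in turn. The median interaction of the p53 list was 0. Among cell cycle genes the mitotic genes Kif11 (-0.46 ± 0.15) and Anln (-0.62 ± 0.21) were lower of 30 G2 and M phase genes (6.67%). Mcm5 (0.32 ± 0.1), of the replicative helicase, was higher of 25 S phase genes (4%, with 4.35% over all genes). These 3 lost their call without any 1 of 9 to 16 litters, and Kif11 and Mcm5 also with the share of intronic models added.

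**Figure D2:**
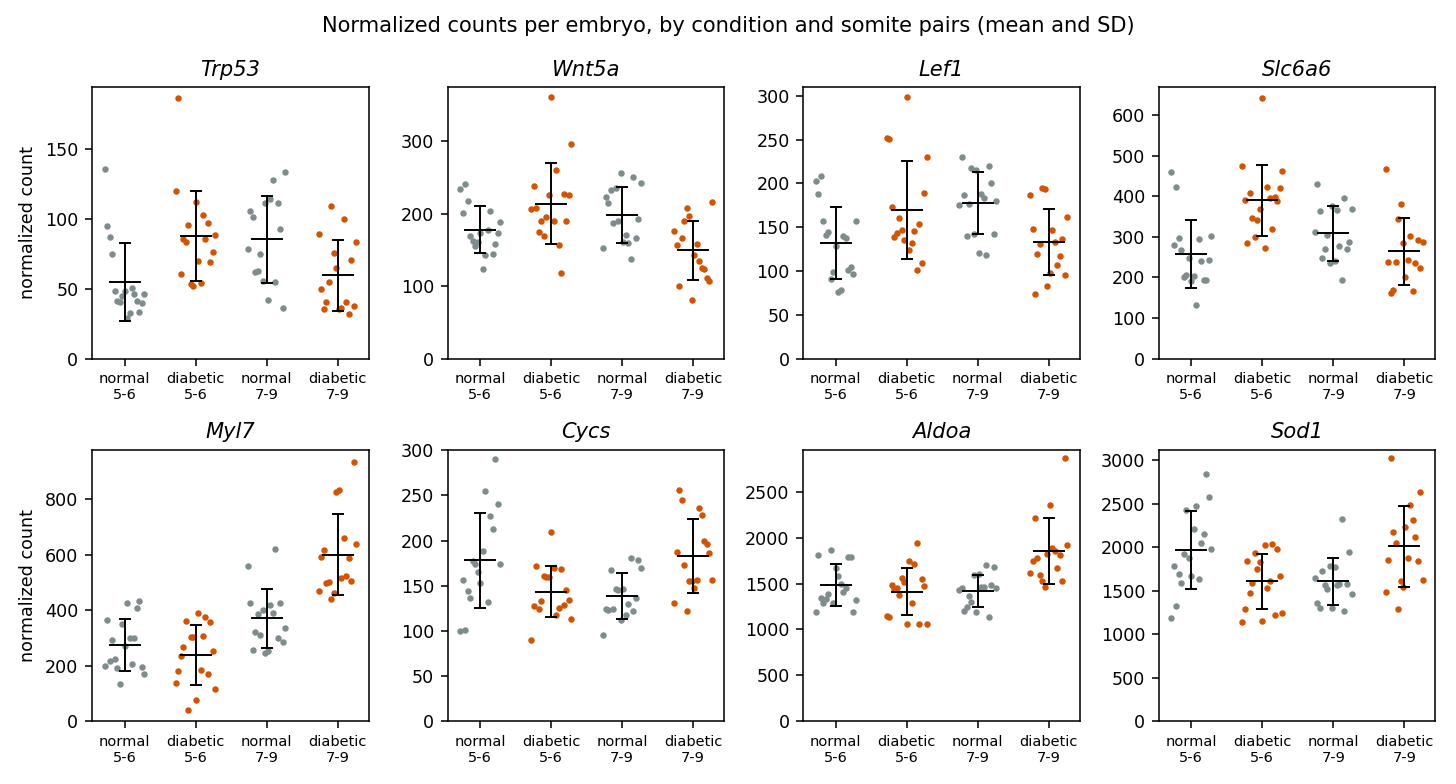
Normalized counts of 8 genes in each of the 66 embryos, with the mean and SD of each group. Grey points are normal and orange points diabetic embryos, and x labels give the condition and the somite pairs. In the upper row (Trp53, Wnt5a, Lef1, Slc6a6) the diabetic mean lies above the normal mean at 5–6 and below it at 7–9 somite pairs, and in the lower row (Myl7, Cycs, Aldoa, Sod1) it lies above at 7–9.

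In energy metabolism the called list members were higher genes. Of 74 nuclear-encoded subunits of the respiratory chain, 11 were higher (14.9%) and 0 lower, and 60 estimates were positive. Their median moved from -0.01 to 0.2 between the stages. Cycs, cytochrome c (ENSMUSG00000063694; chromosome 6, 50562563 to 50566538), had 99.7 to 290.4 (median 174) normalized counts in the earlier and 94.9 to 181 (median 133) in the later normal group. In diabetic embryos it had 90.4 to 209 (median 134) and 122 to 256 (median 179). Between the stages normal embryos fell (-0.37, adjusted p = 0.024, edgeR) and diabetic embryos rose (0.36, adjusted p = 0.0118, edgeR), and the interaction was 0.73 ± 0.16 (adjusted p = 0.00709). Sdhb, a subunit of complex II (ENSMUSG00000009863; chromosome 4, 140961203 to 140979193), had 211 to 557 (median 352) and 266 to 475 (median 278) in normal and 197 to 449 (median 299) and 290.1 to 517 (median 362) in diabetic embryos, and an interaction of 0.6 ± 0.15 (adjusted p = 0.0111). The other named genes were Atp5k (0.7 ± 0.16) and Atp5o (0.54 ± 0.15) of the ATP synthase and Ndufv3 (0.59 ± 0.17) and Ndufa5 (0.64 ± 0.19) of complex I. Cycs, Sdhb and Atp5k were called without each litter in turn. Litter as fixed terms ended the calls of Cycs (0.44, adjusted p = 0.0842) and Ndufa5 (0.52, adjusted p = 0.102). Without the libraries that stand apart 4 of the list were higher and 0 lower, and with litter as fixed terms 11 and 4. With the share of intronic gene models as a covariate 3 were higher and 5 lower, and the median interaction was -0.02. Over all genes tested that fit called 636 higher and 767 lower, with a median of 0.02. The list's shares were near those of all genes, so that these counts say nothing of the list. That covariate ended the calls of Atp5o (0.29), Ndufv3 (0.38) and Ndufa5 (0.53). Of 19 mitochondrial genome transcripts none was called by edgeR or DESeq2, and 1 had an unadjusted p under 0.05.

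Cycs and Sdhb are shown by their promoters, since the list shares a known regulator, with that of Trp53 as a gene of the opposite direction. The sequences are from RefSeq and run from 250 bases before to 50 after the gene's start on GRCm38.p6, at chr6:50566520-50566819 (minus strand), chr4:140961021-140961320 (plus strand) and chr11:69580109-69580408 (plus strand). Capitals mark matches on either strand to GCGCATGC, the NRF1 motif, and CCGGAAG, an ETS motif.
Cycs: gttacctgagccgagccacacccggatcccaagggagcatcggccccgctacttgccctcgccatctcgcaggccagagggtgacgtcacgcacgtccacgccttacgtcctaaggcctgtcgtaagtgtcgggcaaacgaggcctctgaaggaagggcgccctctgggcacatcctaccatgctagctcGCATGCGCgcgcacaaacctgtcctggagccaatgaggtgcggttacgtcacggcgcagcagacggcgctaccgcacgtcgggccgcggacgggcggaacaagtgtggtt
Sdhb: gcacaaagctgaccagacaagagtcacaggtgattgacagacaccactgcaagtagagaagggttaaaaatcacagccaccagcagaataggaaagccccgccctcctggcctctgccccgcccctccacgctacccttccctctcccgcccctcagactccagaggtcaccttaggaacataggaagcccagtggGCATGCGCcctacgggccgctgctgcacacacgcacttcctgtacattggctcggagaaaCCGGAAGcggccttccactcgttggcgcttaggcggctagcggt
Trp53: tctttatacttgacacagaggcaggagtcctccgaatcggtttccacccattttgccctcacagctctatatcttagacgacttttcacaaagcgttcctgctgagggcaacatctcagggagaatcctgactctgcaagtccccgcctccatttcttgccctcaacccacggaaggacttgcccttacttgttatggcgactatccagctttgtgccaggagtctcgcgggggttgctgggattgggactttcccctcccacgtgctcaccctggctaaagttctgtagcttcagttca
The NRF1 letters stand at bases 191 to 198 of the Cycs window and 197 to 204 of the Sdhb window, and the ETS letters at bases 257 to 263 of the Sdhb window. NRF1 is a transcription factor known for its sites at respiratory chain genes. Of 8587 tested genes matched by symbol to a promoter, 6.01% held the NRF1 letters, with 6.67% of 390 higher and 8.51% of 329 lower genes. The ETS letters were in 19.8% of tested, 25.4% of higher and 17.6% of lower genes. Of all 27025 promoters 2.8% held the NRF1 and 9.12% the ETS letters. These shares are a description without a test. The share among the respiratory chain genes was not counted, and the printed promoters say nothing of a link between the letters and the direction.

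Glycolysis had 4 higher genes of 22 (18.2%) and 0 lower. Aldoa, an aldolase (ENSMUSG00000030695; chromosome 7, 126795234 to 126800751), had 1188 to 1862 (median 1405) normalized counts in the earlier and 1137 to 1700 (median 1452) in the later normal group. Diabetic embryos had 1055 to 1941 (median 1452) and 1466 to 2865 (median 1791). The earlier groups lay close together, and the later diabetic group stood higher with overlap. The interaction was 0.46 ± 0.12 (adjusted p = 0.0133). Gpi1, which isomerizes glucose 6-phosphate, had medians of 366 and 383 in normal and 390.3 and 547 in diabetic embryos (0.48 ± 0.15). The other calls were Pfkl (0.55 ± 0.16), a phosphofructokinase subunit, and Hk1 (0.68 ± 0.22), a hexokinase. Aldoa was called without each litter in turn. Without the 3 libraries that stand apart, no gene of the list was called by edgeR. With the share of intronic gene models added 5 were higher and 4 lower, in a fit that called 636 and 767 of all genes.

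Antioxidant genes had 5 higher of 29 (17.2%) and 0 lower, and their median moved from -0.06 to 0.23. Sod1, the cytosolic superoxide dismutase (ENSMUSG00000022982; chromosome 16, 90220754 to 90226329), had 1183 to 2842 (median 1926) normalized counts in the earlier and 1270 to 2328 (median 1572) in the later normal group. Diabetic embryos had 1142 to 2041 (median 1613) and 1295 to 3023 (median 1956). Normal medians went down and diabetic medians up, with overlap. Its interaction was 0.62 ± 0.15 (adjusted p = 0.00948). Gsta4, a glutathione transferase, had 0.68 ± 0.16 (adjusted p = 0.00841). Txn2 (mitochondrial thioredoxin) had 0.45 ± 0.12, Gstm1 0.6 ± 0.18 and Prdx6 (a peroxiredoxin) 0.29 ± 0.1. Sod1 and Gsta4 were called without each litter in turn. Without the libraries that stand apart 2 of the list were higher and 0 lower, and with litter as fixed terms 6 and 4. With the share of intronic models 4 were higher and 3 lower, in a fit that called 636 and 767 of all genes. Prdx6 lost its call with litter as fixed terms and with this share added. The hypoxia list had Adm as its single call among 19 genes.

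Cytosolic ribosomal protein genes had 10 higher of 80 (12.5%) and 0 lower. Rpl8 (ENSMUSG00000003970; chromosome 15, 76904078 to 76906314) had 2657 to 5517 (median 3718) normalized counts in the earlier and 2768 to 4353 (median 3559) in the later normal group, and 2580 to 4468 (median 3233) and 3598 to 6928 (median 4263) in diabetic embryos. The later diabetic group had the highest median, with overlap. Its interaction was 0.57 ± 0.12 (adjusted p = 0.00621). Rps19 (0.54 ± 0.13), Rplp0 (0.45 ± 0.12), Rpl14 (0.49 ± 0.13), Rpl7 (0.5 ± 0.14) and Rps14 (0.54 ± 0.16) were higher as well. The direction of the list turned with the fit. With litter as fixed terms 11 genes were higher and 11 lower, where 740 and 1099 of all genes were called. With the share of intronic gene models added 3 were higher and 17 lower, with a median of -0.15, where 636 and 767 were called. Rpl7 lost its call in both fits (0.49 and 0.33), and Rplp0 and Rps14 in the latter (0.26 and 0.42). Without the libraries that stand apart 3 were higher and 0 lower. Ribosomal protein genes have many processed pseudogenes, among which their reads could be divided.

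Among stress and protein turnover genes, Stip1 (0.38 ± 0.12) and Dnajb1 (0.49 ± 0.17) were higher of 15 heat shock genes (13.3%, against 4.35% of all genes). Trib3 and Hspa5 (0.4 ± 0.13), the chaperone BiP of the endoplasmic reticulum, were higher of 24 genes of the unfolded protein and integrated stress response (8.33%). Stip1, Dnajb1 and Hspa5 lost their call without any 1 of 11 to 16 litters. Trib3 (1.04), Dnajb1 (0.2) and Hspa5 (0.32) were not called with litter as fixed terms, and with the share of intronic models Dnajb1 (0.45). Ctsd, the lysosomal protease cathepsin D (ENSMUSG00000007891; chromosome 7, 142375911 to 142388038), was the single call of 24 lysosomal genes. It had 176 to 447 (median 274) normalized counts in the earlier and 170.3 to 271 (median 226) in the later normal group, against 184 to 295 (median 226) and 193 to 502 (median 267) in diabetic embryos. Its interaction was 0.63 ± 0.14 (adjusted p = 0.00633), called without each litter in turn.

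In the heart list 4 of 33 genes were higher (12.1%) and 0 lower, with a median of -0.04 at 5–6 and 0.22 at 7–9 somite pairs. Myl7, a myosin light chain of the early heart tube (ENSMUSG00000020469; chromosome 11, 5896637 to 5898782), had 135 to 434 (median 271) normalized counts in the earlier and 247 to 619 (median 360) in the later normal group. Diabetic embryos had 39.6 to 391 (median 252) and 441 to 932 (median 555). Later diabetic embryos thus stood above the earlier ones without overlap, whereas the conditions overlapped at each stage. The stage change was 1.33 in diabetic embryos (adjusted p = 1.2e-07, edgeR) and 0.42 in normal embryos (adjusted p = 0.0993, edgeR), and the interaction was 0.91 ± 0.25 (adjusted p = 0.0204). The other calls were the contractile genes Myl9 (0.81 ± 0.26), Acta2 (0.74 ± 0.24) and Actc1 (0.81 ± 0.27), which lost their call without any 1 of 11 to 14 litters, while Myl7 was called without each litter in turn. With litter as fixed terms 2 cardiac genes were higher and 2 lower, and Acta2 and Actc1 were not called. The share of intronic models as a covariate left Myl7 as called and ended the calls of Myl9, Acta2 and Actc1. Endothelial genes had 3 higher of 22 (13.6%) and 0 lower. Cd34, a surface marker of endothelial and blood progenitors, had 47 to 89.5 (median 67.1) and 33.5 to 86.8 (median 58.4) in normal and 26.2 to 87.5 (median 40.5) and 48.2 to 131 (median 68.8) in diabetic embryos. Its interaction was 0.81 ± 0.21 (adjusted p = 0.014). Esam had 0.54 ± 0.17 and Ramp2, a receptor component for adrenomedullin, 0.43 ± 0.14, and neither was called with litter as fixed terms (0.55 and 0.37). Without the libraries that stand apart no cardiac or endothelial gene was called by edgeR.

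Embryonic globins differed widely between libraries. Hba-x had 0.746 to 19.1 (median 7.76) normalized counts in the earlier and 5.42 to 448 (median 55.4) in the later normal group, and 0 to 38.8 (median 6.95) and 14.8 to 1745 (median 80.7) in diabetic embryos. Its interaction was 1.77 ± 0.89 (adjusted p = 0.179). None of 9 erythroid genes was called by edgeR or DESeq2, 1 had an unadjusted p under 0.05 and the list median was 0.47. All 5 erythroid markers had counts, and their summed level was 11.9 to 79.4 and 21 to 1690 normalized counts in normal (earlier, later) and 2.7 to 166 and 39.3 to 5050 in diabetic embryos. None of 9 visceral endoderm genes was called by edgeR or DESeq2, 0 had an unadjusted p under 0.05 and the median was 0.49. All 10 visceral endoderm markers had counts, and their summed level was 326 to 1180 and 104 to 1550 in normal and 175 to 1880 and 151 to 3620 in diabetic embryos. Apoa4 (1.26 ± 0.64, adjusted p = 0.185) and Afp (0.84 ± 0.52, adjusted p = 0.282) are among them. The part of blood and endoderm cells in the other results was not tested.

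For sterol genes the size of the effect differed more than its direction. Of 23 genes tested, 7 were lowered at 5–6 and 4 at 7–9 somite pairs, and the list median was -0.33 and -0.15. In the interaction 2 were higher (8.7%, against 4.35% of all genes) and 0 lower, and with litter as fixed terms 6 and 0. Sqle, an enzyme of cholesterol synthesis (ENSMUSG00000022351; chromosome 15, 59315077 to 59331192), had 161 to 255 (median 206) normalized counts in the earlier and 162 to 250.1 (median 192) in the later normal group. Diabetic embryos had 114 to 208 (median 141) and 140.5 to 247 (median 168). The diabetic median was the lower one at both stages, with overlap. Its log2 fold change went from -0.49 (adjusted p = 2.6e-04, edgeR) to -0.15 (adjusted p = 0.221, edgeR), and the interaction was 0.34 ± 0.11 (adjusted p = 0.0447). It lost its call without any 1 of 14 litters, with litter as fixed terms (0.27) and with the share of intronic models added (0.33), and no sterol gene was called by edgeR without the libraries that stand apart.

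Among nutrient genes, the taurine transporter gene Slc6a6 (ENSMUSG00000030096; chromosome 6, 91684053 to 91759066) had 131 to 459 (median 243) normalized counts in the earlier and 193 to 431 (median 296) in the later normal group, and 271 to 643 (median 391) and 161 to 467 (median 241) in diabetic embryos. The diabetic median was the higher one among earlier and the lower one among later embryos, with overlap. Its interaction was -0.81 ± 0.18 (adjusted p = 0.00739). Slc38a1, a glutamine transporter gene, was also lower (-0.43 ± 0.12), as 2 of 18 amino acid transporter genes in all (11.1%, against 4.35% of all genes). Mlx and Mlxip encode partners in a glucose-sensing transcription factor complex and were lower (-0.7 ± 0.23 and -0.51 ± 0.17), of 5 genes in that list. Insr and Igf1r, the insulin and IGF1 receptor genes, were lower too (-0.49 ± 0.16 and -0.46 ± 0.14), of 16 genes (12.5%). Shmt1, of serine and folate metabolism, and Slc46a1, the proton-coupled folate transporter gene, were higher (0.41 ± 0.1 and 0.67 ± 0.18), of 23 genes (8.7%). Slc6a6 and Shmt1 were called without each litter in turn, Slc38a1 and Slc46a1 lost their call without 1 litter each, and Mlx, Mlxip, Insr and Igf1r without any 1 of 10 to 15. Mlxip and Igf1r were not called with litter as fixed terms (-0.62 and -0.38), and Mlxip, Igf1r and Insr not with the share of intronic models (-0.48, -0.18 and -0.2).

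Imprinted genes, expressed from 1 parental allele, had 4 lower (12.5%) and 2 higher (6.25%) of 32, against 4.35% of all genes each way. The lower ones were Sgce (-0.75 ± 0.18, adjusted p = 0.0104), Peg3 (-0.54 ± 0.15), Zim1 (-0.92 ± 0.28) and the antisense RNA gene Kcnq1ot1 (-0.76 ± 0.25), and the higher ones Nnat (0.56 ± 0.18) and H19 (0.53 ± 0.17), which was also the single call of 13 allantois genes. With the share of intronic gene models added, the interaction of Kcnq1ot1, a long unspliced RNA, was 0.06 (adjusted p = 0.794, edgeR), and Peg3 (-0.34) and Zim1 (-0.56) were not called either. Zim1 (-0.63) and Kcnq1ot1 (-0.37) were not called with litter as fixed terms. H19 lost its call without any 1 of 13 litters and Nnat without any 1 of 11. Both also lost it without the libraries that stand apart and with GC and length trends removed. Further lists held single calls, which say nothing of the lists. The laminin gene Lamc1 (-0.72 ± 0.2) was lower of 29 matrix genes, and the tight junction gene Tjp1 (-0.74 ± 0.19) of 24 epithelial genes. Smad2 (0.35 ± 0.11), a mediator of activin and nodal signals, was higher of 31 BMP and TGF-beta genes, and Hhex (0.61 ± 0.2), a transcription factor of foregut endoderm and vessels, of 17 gut endoderm genes. The BMP and TGF-beta list went the other way than Smad2, with 22 negative estimates, and with litter as fixed terms 1 higher and 8 lower genes. Hhex was lowered at the earlier stage (-0.59, adjusted p = 0.00605, edgeR) and stood at 0.02 at the later. Smad2 (0.31) and Hhex (0.38) were not called with litter as fixed terms, nor was Smad2 with the share of intronic models (0.3). Sgce and Tjp1 were called without each litter in turn.

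Short structured RNAs and replication-dependent histones had members raised in diabetic embryos at each stage and none lowered. Of 36 histone genes, 10 were raised at 5–6 and 24 at 7–9 somite pairs, and the list median was 0.67 and 1.1. Of 32 short non-coding RNA genes in the list, 15 and 21 were raised, with medians of 0.84 and 1.07. The interaction was called for 2 histone genes and 1 short RNA of these lists, all higher. The list of short RNAs does not hold the whole annotation class, and the called Gm22620 is not in it. Of 64 short non-coding genes tested by class, 2 were higher and 0 lower, and 36 and 42 were raised at the stages. Hist1h4d (ENSMUSG00000061482; chromosome 13, 23581598 to 23582735) had 1.1 to 15.9 (median 6.57) normalized counts in the earlier and 0 to 24.2 (median 5.42) in the later normal group, against 1.38 to 37.1 (median 6.72) and 3.65 to 59.2 (median 27) in diabetic embryos. Its interaction was 1.53 ± 0.47 (adjusted p = 0.0339). Scarna9 had medians of 24.4 and 42.1 in normal and of 28.4 and 135 in diabetic embryos, with 1.48 ± 0.46 (adjusted p = 0.0331). Hist1h3a had 1.08 ± 0.36. These RNAs mostly lack a poly(A) tail, from which such libraries are primed. With litter as fixed terms the median interaction was -0.11 for histones and -0.05 for the short RNAs of the list, and no histone gene was called by edgeR.

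**Figure D3:**
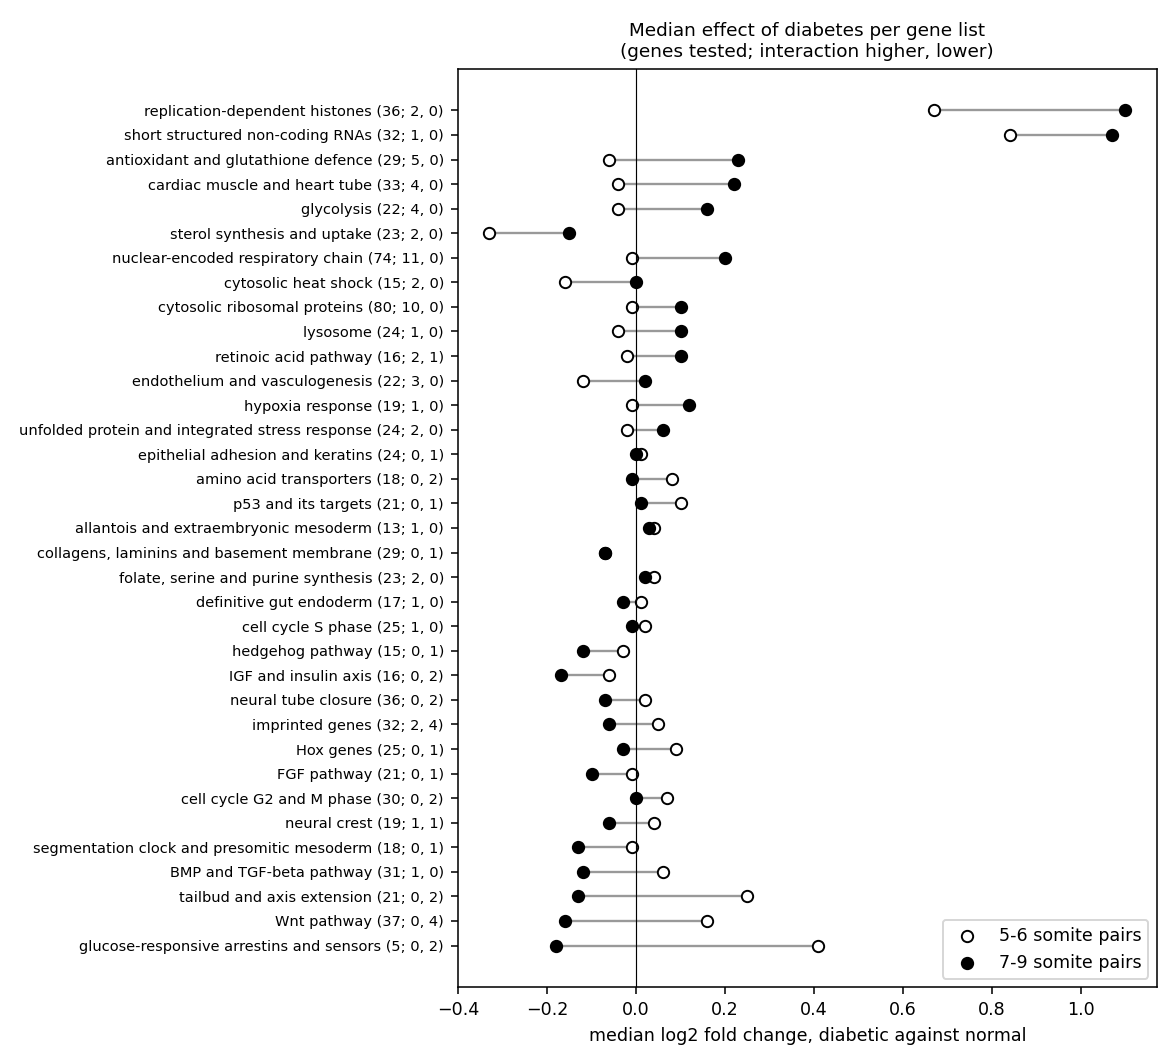
Median log2 fold change of diabetic against normal embryos at 5–6 (open points) and 7–9 somite pairs (filled points) for each gene list with at least 1 called interaction, and labels give the genes tested and the number of higher and lower genes. Wnt pathway and tailbud medians move from 0.16 and 0.25 to -0.16 and -0.13, respiratory chain and antioxidant medians from -0.01 and -0.06 to 0.2 and 0.23, and histones and short non-coding RNAs lie between 0.67 and 1.1 at both stages.

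Other lists had no called interaction by edgeR. They were formed somites (14 genes, 1 with an unadjusted p under 0.05), brain regional factors (27, 4), neurogenesis (17, 3), fatty acid metabolism (20, 3), pluripotency genes (10, 2), decidua and trophoblast (4, 1), sex-linked genes (5, 0) and the cold-inducible pair Cirbp and Rbm3 (2, 0), with 0 calls by DESeq2 in each. Of 20 immediate early genes 4 had an unadjusted p under 0.05, and DESeq2 called 1. Smallest in p were Rax (0.85, adjusted p = 0.0654) and Gbx2 (-0.68, adjusted p = 0.0701) among brain factors, and Ier3 (1.14, adjusted p = 0.0644) and Nr4a1 (-1.16, adjusted p = 0.0707) among immediate early genes. An adjusted p above the threshold does not show that these genes act alike at the stages. Rbm3 was raised in diabetic embryos at both (0.64 and 0.47).

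Gene structure went along with the interaction. Higher genes had a median transcript length of 2249 bases and a GC content of 52.5%, and lower genes of 5122 bases and 44.8%, against 3464 bases and 49.3% for all genes tested. In the decile of lowest GC content 12 genes were higher and 114 lower, and in the decile of highest GC content 62 and 8. Among the shortest transcripts 105 were higher and 13 lower, and among the longest 10 and 138. After trends on GC content and length were removed from each library, 315 genes were higher and 266 lower, and 393 of the 984 remained called. Of the 91 genes 45 lost their call and 1 was not tested, and of the 28 called without each litter in turn Myl7 (0.65, adjusted p = 0.0632), Aldoa (0.22, adjusted p = 0.117), Atp5k (0.37, adjusted p = 0.0545) and Rpl14 (0.22, adjusted p = 0.166) did. Of the respiratory chain list 6 genes were then higher and 0 lower, of antioxidant genes 2 and 1, of glycolysis 1 and 0, of cardiac genes 0 and 0, of the Wnt pathway 0 and 3, and of the tailbud list 0 and 5.

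**Figure D4:**
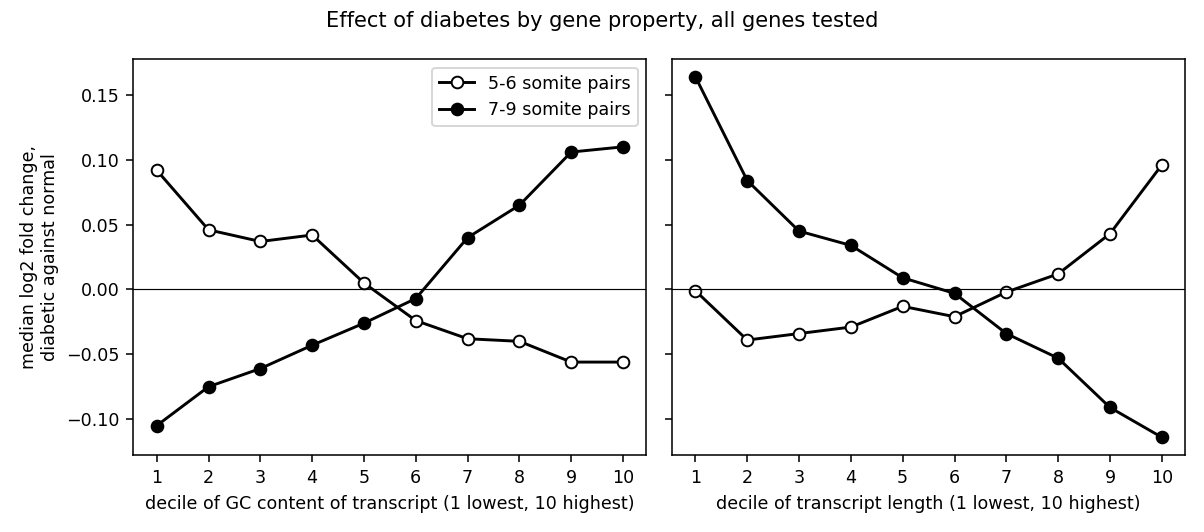
Median log2 fold change of diabetic against normal embryos over deciles of the genes tested, ordered by the GC content (left) and the length (right) of the transcript, at 5–6 (open points) and 7–9 somite pairs (filled points). The lines cross, and for the decile of lowest GC content the median went from 0.092 to -0.105, and for the highest from -0.056 to 0.11.

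The stage change could be read within 10 litters that hold embryos of both stages, 3 diabetic and 7 normal litters. For each litter the mean log2 of the normalized count plus 1 at the earlier stage was subtracted from that at the later stage. The genes were chosen by the interaction in a fit that includes these embryos, so that the values are a description of where the difference lies, with no test. For Wnt5a, normal litters changed by -0.25 to 0.42 and diabetic litters by -0.77 to -0.57. Myl7 changed by 0 to 1.13 in normal and by 1.41 to 2.07 in diabetic litters. Slc6a6 changed by 0.08 to 0.52 and by -0.97 to -0.43. The litters of the conditions did not overlap for these 3 genes. Among the 91 called genes of the naming rule this held for 48. The share over all genes tested was not counted, so that this number supports nothing. Of the 3 diabetic litters, D28M23 and D28M36 hold all 3 libraries that stand apart, and D28M36 has 1 embryo of the earlier stage. Trp53 changed by 0 to 1.62 in normal and by -0.91 to 0.06 in diabetic litters, and Cycs by -0.41 to 0.12 and by -0.21 to 0.54, and both overlapped. Hist1h4d had -1.51 to 1.78 and -0.7 to 1.44.

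**Figure D5:**
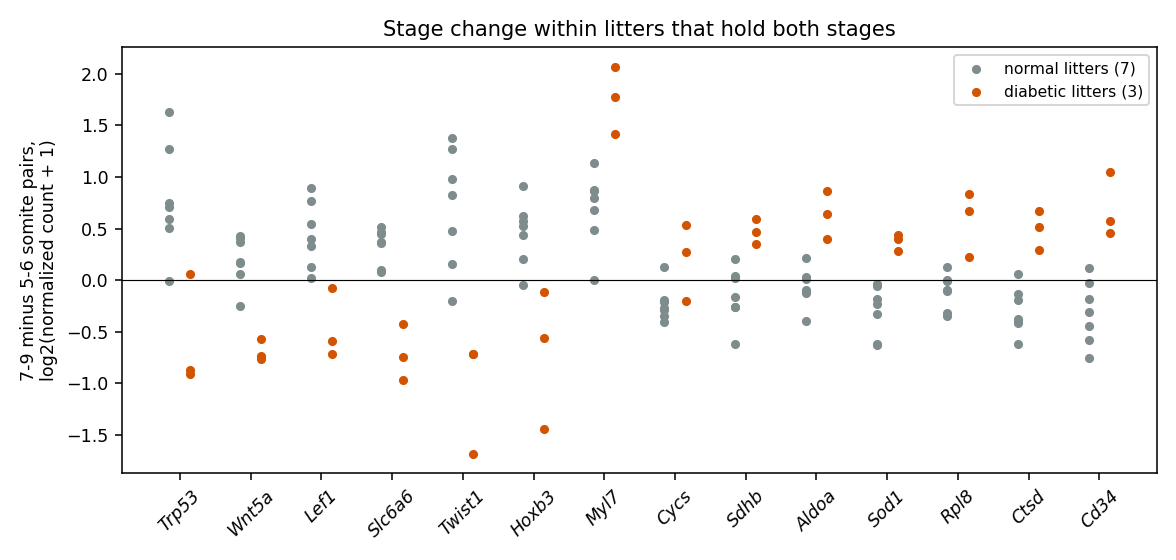
Stage change of 14 genes within each of 7 normal (grey) and 3 diabetic litters (orange) that hold both stages, as the litter's mean log2(normalized count + 1) at 7–9 minus 5–6 somite pairs. Diabetic litters lie below normal ones for Wnt5a, Lef1, Slc6a6, Twist1 and Hoxb3, and above them for Myl7, Sdhb, Aldoa, Sod1, Rpl8, Ctsd and Cd34, while Trp53 and Cycs overlap. The genes shown are a choice. Among the 91 called genes of the naming rule the litters did not overlap for 48, a count without the share over all genes, which supports nothing.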

How the data were processed

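Whole embryos were profiled by 3′ end RNA sequencing with unique molecular identifiers. The authors mapped reads with STAR and counted them with HTSeq on mm10 (versions not given in the sources used here) and deposited raw UMI counts per gene for 136 libraries. All 66 embryo columns were used, and the yolk sacs and 2 embryo duplicates were left out. Of 47643 genes 11304 passed edgeR's filterByExpr (minimum count 10). One quasi-likelihood fit of 4 groups (edgeR 4.0.16, R 4.3.3, TMM scaling) gave the interaction and its parts. Adjusted p are Benjamini-Hochberg values over all genes tested, called under 0.05. Normalized counts are counts divided by DESeq2 1.42.0 size factors, and the random litter block used limma 3.58.1. Totals per embryo had a median of 2277827.5 counts, which limits genes of low counts most.

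The gene lists, the rule for named genes and the comparison were chosen with earlier results of these data known. Named were the 12 largest called genes in each direction (at least 10 normalized counts in a group, same sign with litter as fixed terms) and up to 6 called members of each list by p, or 2 members where none was called (for sex-linked genes none). Some genes that the rule picked are not reported here. The alternatives on GC content and length (lowess span 0.3), the share of intronic gene models, the libraries that stand apart and title number 28 were chosen after seeing the data. Coordinates are GRCm38, and promoters are RefSeq on GRCm38.p6. Embryos, not litters, are the units of the fit, so its p-values measure the spread between embryos.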

Additional observations from a re-analysis of the deposited data

Results flagged for a closer look

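The genes below, picked by the naming rule among those with a called interaction, stand here because their diabetes effect differed between the stages by edgeR's quasi-likelihood test of the interaction itself, and the value in parentheses is the adjusted p over all 11304 genes tested. In edgeR's test with 1 value per litter and stage, 80 of the 91 genes picked had an unadjusted p under 0.05 and 1 an adjusted p under it. That test uses the same embryos by which the genes were chosen, so that the 80 support nothing. Fits that take litter into account are given above, and the part of depth and library quality in these differences was not tested.

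Of the higher genes the smallest values belonged to Rpl8 (0.00621), Ctsd (0.00633), Cycs (0.00709), Shmt1 (0.00841), Atp5k (0.00841), Gsta4 (0.00841), Sod1 (0.00948), Il11ra1 (0.01), ENSMUSG00000029333 (0.0101), Rps19 (0.0109), Sdhb (0.0111) and Aldoa (0.0133). Next in order were Cd34 (0.014), Rplp0 (0.0156), Rpl14 (0.0159), Txn2 (0.0169), Slc46a1 (0.0191), Atp5o (0.02), Myl7 (0.0204), Pfkl (0.0227), Rpl7 (0.0253), Rps14 (0.0257) and Ndufv3 (0.0263). These were followed by Ndufa5 (0.0279), Trib3 (0.0306), Smad2 (0.0316), Gstm1 (0.0327), Gm22620 (0.0328), Scarna9 (0.0331), Rpl28-ps1 (0.0331), Mettl15 (0.0331), Gpi1 (0.0334), Hist1h4d (0.0339), Lum (0.0351) and Crabp1 (0.0352). Larger adjusted p were found for Stip1 (0.0361), Mcm5 (0.0369), Esam (0.0377), Sfn (0.0386), Nnat (0.04), Myl9 (0.0409), Hk1 (0.0419), Acta2 (0.0424), Rxra (0.0424), Hspa5 (0.0424), Hhex (0.0426) and Actc1 (0.0438). Closest to the threshold were H19 (0.0446), Sqle (0.0447), Adm (0.0452), Prdx6 (0.0467), Hist1h3a (0.049), Ramp2 (0.0492) and Dnajb1 (0.049995).

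Of the lower genes the smallest values belonged to Gm10800 (0.0051), Gm43274 (0.00571), Slc6a6 (0.00739), Gm42449 (0.00841), Hoxb3 (0.00841), Trp53 (0.00841), Gm44144 (0.00948), 2610011E03Rik (0.00948), Wnt5a (0.0101), Sgce (0.0104), Gm43275 (0.0111) and Spry4 (0.0119). After them came Lef1 (0.0132), Tjp1 (0.0132), Gm37018 (0.0167), Lamc1 (0.0198), Slc38a1 (0.02), Peg3 (0.0204), Smo (0.0222), Cyp26a1 (0.0227), Gm37663 (0.0262), Lrp6 (0.0329), Zim1 (0.0331) and Gm37524 (0.0382). Still larger were those of Igf1r (0.0386), Kif11 (0.0386), 5430420F09Rik (0.039), Mlx (0.043), Twist1 (0.0434), Kcnq1ot1 (0.0442), Gm37879 (0.0451), Apba3 (0.0461), Shisa2 (0.0473), Insr (0.0473), Mlxip (0.0479) and Anln (0.0492).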

How the results depend on the processing

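Over all alternatives all 91 called genes of the naming rule kept the sign of their interaction except Kcnq1ot1, which was 0.06 with the share of intronic gene models added. Of genes without a call, Cirbp was -0.02 with somite pairs as a continuous variable, and Rbm3 was 0.02 with counts summed per litter, 0.09 with GC and length trends removed and litter as fixed terms, and -0.29 to 0.08 when 1 litter was left out (0.08 without D24M15). Against 492 higher and 492 lower genes, the counts were 179 and 259 with no filter on low counts, 1048 and 1081 with the title number added, 88 and 117 with somite pairs as a continuous variable, 740 and 1099 with litter as fixed terms, 0 and 1 with counts summed per litter and stage, 315 and 266 with GC and length trends removed, 116 and 197 without the libraries that stand apart, and 751 and 957 in libraries of title number 28 alone. The lower genes were 842 with GC and length trends removed and litter as fixed terms, and 767 with the share of intronic models. Leaving out 1 litter gave 155 to 732 higher and 194 to 776 lower genes, and over 1.5 times fewer higher genes without D28M23 (155), D28M31 (239), D28M36 (303), D28M53 (177), N28M05 (299), N28M06 (178), N28M22 (256), N28M25 (301) or N28M30 (267). DESeq2's Wald test gave 529 and 628.

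Diabetic against normal embryos at 5–6 somite pairs called 525 genes, but 150 with litter as a random block, 0 with counts summed, 273 without the libraries that stand apart, 2086 in title number 28 and 76 to 1263 without 1 litter. At 7–9 somite pairs it called 947, but 2138 with the title number added, 426 with continuous somite pairs, 232 with the random block, 0 with counts summed, 1925 with the share of intronic models, 367 without the libraries apart and 394 to 1140 without 1 litter. The stage change in normal embryos (1545) was 977 with no filter, 419 with continuous somite pairs, 308 with counts summed, 2453 with GC and length trends removed and litter fixed, and 609 to 1764 without 1 litter. In diabetic embryos (3551) it was 2169 with litter fixed, 1309 with counts summed, 1650 with trends removed and litter fixed, and 2765 to 3786 without 1 litter. The cause was not tested. No paired analysis was possible because diabetic and normal embryos share no dam, as far as the contrast of the conditions within a stage goes. Stages were compared within litters, by litter as fixed terms and in the 10 litters that hold both stages, and the fit with litter as fixed terms gives no contrast of diabetic with normal embryos within a stage.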
